A study of Mus musculus with 18 samples.

Results

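A set of 10 genes of the lipid droplet and of fatty acid handling were followed in mouse liver with hepatocyte Yap1 deletion or YAP overexpression and chronic ethanol feeding. The members were 10 listed gene symbols, Cidec, Cidea, Plin2, Plin4, Plin5, Fabp4, Cd36, G0s2, Pnpla2 and Mogat1, out of 23930 genes on the panel. They were chosen around the measured response of Cidec to ethanol, which was high with ethanol in control and knockout livers and not in overexpressing livers. The Cidec values and the ethanol responses of all members are therefore a description: they carry no p-value, and where members past a threshold are counted in those comparisons, nothing is read from the count. All members but Cidea, 9 of the 10, passed the filter on low values of at least 1 CPM (read counts scaled to a common library total) in 3 libraries, as did 11720 genes in all.

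All mice carried Yap fl/fl alleles and received an adeno-associated virus (AAV) at 8 weeks of age. The TBG promoter, which is active in hepatocytes, drove each vector. Knockout (KO) mice received AAV-TBG-Cre, overexpression (OE) mice received AAV-TBG-YAP-P2A-EGFP, and control mice received AAV-TBG-GFP; the Cre vector was given at a lower dose of genome copies than the other vectors. Control mice thus had the floxed alleles and a GFP vector, and OE mice kept their own Yap1 as well as the transgene. Liquid feeding began 2 weeks after injection with 5 days of acclimation, followed by 4 weeks of the Lieber-DeCarli ethanol diet or of the control diet (pair-fed). Ethanol mice then received 33% ethanol by gavage at 5 g/kg, pair-fed mice received maltose-dextrin, and livers were taken 9 hours later. Each of the 6 groups (KO ethanol, KO pair-fed, OE ethanol, OE pair-fed, control ethanol, control pair-fed) had 3 libraries, 18 in all. The labels do not say that the libraries of a group came from separate animals, so p-values measure the spread between these libraries.

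Hepatocytes store triglyceride in droplets coated by perilipins, and chronic alcohol intake is a well known cause of such storage in the liver. CIDE proteins sit where droplets touch and let lipid pass from smaller into larger droplets. Pnpla2 (adipose triglyceride lipase) starts the breakdown of the stored triglyceride and G0s2 inhibits it, while Cd36 and Fabp4 take up and carry fatty acids and Mogat1 makes diacylglycerol for new triglyceride. The nuclear receptor PPAR-gamma is a known activator of several of these genes in fatty mouse liver, and YAP acts on genes through TEAD transcription factors.

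The libraries held 4680152 to 5806228 reads, so that 1 read was worth 0.172 to 0.214 CPM. Each gene was read through a single amplicon, so levels of different genes are not strictly comparable. Levels of different members are not set against each other, and the marker sums below add different amplicons. Yap1, the targeted gene, stood at 3.34 to 15.1 CPM in the 6 KO libraries and at 57.6 to 214 CPM in the 6 OE libraries, against 51.5 to 66.6 CPM in the 6 control libraries; pair-fed OE library 1, at 57.6 CPM, lay within the control range. All 3 pair-fed KO libraries and pair-fed control libraries 2 and 3 had high Xist (348 to 423 CPM) and little Ddx3y (at most 3.47 CPM), whereas the other libraries had 0 to 2.75 CPM of Xist and 54.0 to 129 CPM of Ddx3y. Diet and these sex chromosome genes cannot be told apart within the KO mice, and the pair-fed control group was mixed. The library barcodes in the labels fall into 3 ranges that follow the library number in every group, except that control ethanol library 1 shared the range of the libraries numbered 2; with the range as a block the member counts given below were 3 in KO, 1 in OE and 2 in control mice, as without it. The samples were bulk liver, in which fewer cells of a type and less RNA per cell cannot be told apart.

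Several members are best known from fat cells, so adipocyte markers were examined first. Adipoq and Lep, the defining hormones of adipocytes, had 0 reads in all 18 libraries. The sum of 8 adipocyte markers ran from 17.2 to 38.3 CPM and was mostly Lipe, at 17.0 to 37.6 CPM, which also acts in other tissues. Hepatocyte markers summed to 35950 to 73900 CPM.

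The start site regions of the members that the results turn on are shown with matches to the letters of known elements, because YAP acts through TEAD factors and PPAR-gamma acts with RXR on direct repeats. The sequences are RefSeq promoter windows on GRCm38.p6, running from 250 bases before to 50 bases after a start site and written 5′ to 3′ in the sense of the gene, with element matches in capitals. Cidec has 2 annotated start sites, at chr6:113435711-113436010 and chr6:113434715-113435014 on the minus strand; Plin2 lies at chr4:86670010-86670309 and the upstream Plin5 window at chr17:56117499-56117798, both on the minus strand.
Cidec, upstream start: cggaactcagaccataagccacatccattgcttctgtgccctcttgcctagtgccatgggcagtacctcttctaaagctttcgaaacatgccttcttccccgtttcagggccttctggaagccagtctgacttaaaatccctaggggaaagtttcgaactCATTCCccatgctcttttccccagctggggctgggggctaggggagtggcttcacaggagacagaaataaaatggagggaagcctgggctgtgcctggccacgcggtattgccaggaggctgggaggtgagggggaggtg
Cidec, downstream start: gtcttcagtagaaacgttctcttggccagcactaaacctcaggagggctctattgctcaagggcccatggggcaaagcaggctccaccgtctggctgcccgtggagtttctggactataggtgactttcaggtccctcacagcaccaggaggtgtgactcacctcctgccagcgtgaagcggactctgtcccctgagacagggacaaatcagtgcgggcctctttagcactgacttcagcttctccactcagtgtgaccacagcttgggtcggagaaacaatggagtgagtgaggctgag
Plin2: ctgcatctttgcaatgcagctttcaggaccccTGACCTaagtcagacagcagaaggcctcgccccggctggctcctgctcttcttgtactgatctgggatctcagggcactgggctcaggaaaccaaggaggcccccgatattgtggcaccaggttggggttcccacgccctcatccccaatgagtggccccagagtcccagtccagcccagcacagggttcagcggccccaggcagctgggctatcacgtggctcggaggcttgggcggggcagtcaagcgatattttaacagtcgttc
Plin5, upstream start: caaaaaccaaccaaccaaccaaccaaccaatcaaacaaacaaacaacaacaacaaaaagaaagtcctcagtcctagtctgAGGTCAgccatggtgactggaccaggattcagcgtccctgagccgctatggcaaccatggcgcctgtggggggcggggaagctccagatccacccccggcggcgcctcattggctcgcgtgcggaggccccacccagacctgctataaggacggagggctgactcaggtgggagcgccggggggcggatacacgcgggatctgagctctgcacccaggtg

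The upstream Cidec window held a match to the TEAD element GGAATG, on the other strand as CATTCC, 90 bases before the start (-90), and the downstream window held none. The Plin2 window held the PPAR-RXR half-site AGGTCA, on the other strand as TGACCT, at -218, and the upstream Plin5 window held it at -170. The promoter windows kept for the search covered 8 of the 10 members, 10 windows in all, and were searched on both strands. Member windows on 1 chromosome were left out of the counts, and no window of Cidea or Fabp4 was among those kept. The counts of windows given here thus leave out these members, while the windows behind the shares over all promoters were not cut in this way. The half-site was in 4 of these 10 windows and in 16.3% of all 32851 promoter windows, and the TEAD element was in 1 of 10 and in 14.7% of all. The 4 were the Plin2 and Cd36 windows and both Plin5 windows, which overlap and belong to 1 gene. The downstream Plin5 window, not shown, held its match 13 bases after the start. The full direct repeat, 2 copies of AGGTCA on one strand separated by any 1 base, was in 0 of the 10 windows and in 0.0396% of all. The TATA box letters TATAAA were in 0 of the 10 and in 13.6% of all. The single Cidec amplicon does not tell which start site was used.

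Cidec, which promotes the growth of large droplets by lipid transfer, had its highest group level in ethanol-fed KO livers. It stood at 145, 166 and 90.7 CPM in KO ethanol libraries, against 6.35, 5.34 and 6.10 CPM in KO pair-fed libraries. In OE mice it stood at 12.6, 11.2 and 10.3 CPM with ethanol, against 30.9, 194 and 17.97 CPM pair-fed. Control mice had 49.7, 66.1 and 30.2 CPM with ethanol, against 15.8, 4.01 and 6.31 CPM pair-fed. The ethanol libraries lay above all pair-fed libraries in KO and control mice and below all of them in OE mice. Within the ethanol diet the 3 genotypes did not overlap, with every KO library above every control library and every control library above every OE library.

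In group means, Cidec averaged 134 ± 38.8 CPM in KO ethanol, 11.4 ± 1.16 CPM in OE ethanol and 48.7 ± 17.95 CPM in control ethanol livers (SD, n = 3 each). Pair-fed livers averaged 5.93 ± 0.524 CPM in KO, 80.8 ± 97.9 CPM in OE and 8.69 ± 6.22 CPM in control mice (SD, n = 3 each). The wide spread of the OE pair-fed group came from library 2, at 194 CPM, which was the highest Cidec value of the 18 libraries. The ethanol minus pair-fed difference in log2(CPM + 1) was 4.24 ± 0.58 in KO, -1.99 ± 0.58 in OE and 2.48 ± 0.58 in control mice (SE). The OE difference was -0.99 without pair-fed library 2 and -2.30 without pair-fed library 1, whose Yap1 was at the control level. With a term for Xist above Ddx3y, whose size only the mixed pair-fed control group sets, the Cidec differences were 2.77 in KO and 1.50 in control mice. The part of the sex chromosome genes in the Cidec response was not tested further.

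Cidea, a relative of Cidec that marks fatty liver and brown fat, had almost no reads. It had 1 read in KO ethanol library 2 and 2, 1 and 1 reads in the control ethanol libraries, and 0 reads in every library of the other 4 groups. A count of 0 allows up to 3 reads, or 0.517 to 0.641 CPM at these depths, and covers counting error only. The control ethanol values of 0.174 to 0.356 CPM were below that limit. With no filter on low values Cidea entered the fit, and its ethanol minus pair-fed log2 difference in control mice, 0.31 ± 0.07 (SE), was past the threshold used below; it rests on 4 reads in 3 ethanol libraries against 0 reads in 3 pair-fed libraries.

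Plin2, the main perilipin of hepatocyte droplets, had its lowest group mean in pair-fed controls. It stood at 1428, 1367 and 1468 CPM in KO ethanol libraries, against 797, 647 and 666 CPM in KO pair-fed libraries. In OE mice it stood at 1251, 1223 and 724 CPM with ethanol, against 814, 1835 and 816 CPM pair-fed. Control mice had 797, 1093 and 1047 CPM with ethanol, against 558, 713 and 427 CPM pair-fed. Ethanol and pair-fed libraries did not overlap in KO and control mice, and overlapped in OE mice. The ethanol minus pair-fed log2 difference in Plin2 was 1.02 ± 0.28 in KO, -0.05 ± 0.28 in OE and 0.81 ± 0.28 in control mice (SE), and 0.34 in OE mice without pair-fed library 2. With the term for Xist above Ddx3y, the Plin2 differences were 1.00 in KO and 0.80 in control mice.

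Plin5, the perilipin that ties droplets to mitochondria in oxidative tissues, was lowest in ethanol-fed OE livers. It stood at 67.2, 59.9 and 56.2 CPM in OE ethanol libraries, against 120, 169 and 106 CPM in OE pair-fed libraries. KO mice had 114, 143 and 188 CPM with ethanol, against 62.9, 95.3 and 72.1 CPM pair-fed. Control mice had 138, 118 and 101 CPM with ethanol, against 103, 82.7 and 142 CPM pair-fed. The 2 diets did not overlap in OE mice, where ethanol was the lower, nor in KO mice, where ethanol was the higher, and they overlapped in control mice. The ethanol minus pair-fed log2 difference in Plin5 was 0.93 ± 0.23 in KO, -1.07 ± 0.23 in OE and 0.15 ± 0.23 in control mice (SE). The OE difference in Plin5 was -0.88 without pair-fed library 2 and -1.12 without pair-fed library 1. With the term for Xist above Ddx3y, the KO difference in Plin5 was 1.01 ± 0.43 (SE).

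Plin4, a perilipin of nascent droplets in adipocytes, was low in every group, at 1.87 to 27.0 CPM over the 18 libraries. Its OE ethanol libraries had 3.10 to 8.13 CPM, below the 10.8 to 27.0 CPM of the OE pair-fed libraries. The log2 difference of Plin4 there was -1.39 ± 0.56, and -1.04 without pair-fed library 2. The diets overlapped in the other genotypes, and single libraries spanned 1.87 to 9.19 CPM in KO pair-fed and 3.65 to 20.7 CPM in control pair-fed mice.

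Pnpla2, the lipase that begins triglyceride breakdown, followed the order of Plin5 across the ethanol groups. It stood at 152, 143 and 209 CPM in KO ethanol libraries, against 72.8, 134 and 110 CPM in KO pair-fed libraries. In OE mice it stood at 71.1, 72.0 and 85.3 CPM with ethanol, against 115, 116 and 113 CPM pair-fed. Control mice had 119, 140 and 107 CPM with ethanol, against 102, 62.4 and 113 CPM pair-fed. The KO ethanol libraries lay above and the OE ethanol libraries below all pair-fed libraries of their own genotype, and the control diets overlapped. The OE pair-fed libraries, which spread widely in Cidec and Plin2, lay within 3 CPM of each other in Pnpla2. The ethanol minus pair-fed log2 difference of Pnpla2 was 0.69 ± 0.23 in KO, -0.59 ± 0.23 in OE and 0.43 ± 0.23 in control mice (SE), and -0.58 in OE mice without pair-fed library 2.

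G0s2, the protein inhibitor of Pnpla2, spread widely within both ethanol groups of KO and control mice. It ranged from 63.1 to 307 CPM in KO ethanol and from 64.4 to 244 CPM in control ethanol livers, and library 3 was the lowest in both groups. The OE ethanol libraries lay at 185 to 237 CPM. The diets overlapped in every genotype, with ethanol minus pair-fed log2 differences of -0.14 ± 0.45 in KO, 0.06 ± 0.45 in OE and -0.23 ± 0.45 in control mice (SE).

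Fabp4, a fatty acid carrier of adipocytes, macrophages and capillary endothelium, was highest in ethanol-fed control livers. It stood at 10.4, 21.3 and 13.2 CPM in KO ethanol libraries, against 6.91, 8.55 and 5.75 CPM in KO pair-fed libraries. In OE mice it stood at 5.60, 20.5 and 17.2 CPM with ethanol, against 6.06, 27.1 and 8.25 CPM pair-fed. Control mice had 46.0, 27.4 and 29.2 CPM with ethanol, against 6.83, 7.85 and 7.84 CPM pair-fed. Every control ethanol library was above every library of the other groups, and the diets overlapped only in OE mice. The ethanol minus pair-fed log2 difference of Fabp4 was 0.95 ± 0.45 in KO, 0.16 ± 0.45 in OE and 2.01 ± 0.45 in control mice (SE), and 0.76 in OE mice without pair-fed library 2. With the term for Xist above Ddx3y, the Fabp4 differences were 1.12 in KO and 2.13 in control mice.

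Markers of the cells that also express Fabp4 were read in the same groups, and went in both directions with ethanol. The 6 endothelial markers summed to 308 to 318 CPM in control ethanol livers, against 237 to 298 CPM in control pair-fed livers. Of the 6, 2 (Lyve1 and Pecam1) rose by the limma test with Benjamini-Hochberg adjustment, where 2.70% of all genes were called in either direction. The share of all genes was 0.196% with the term for Xist above Ddx3y. The median log2 difference of the 6 was -0.22, and Kdr (19.95 to 22.98 CPM in control ethanol, against 32.03 to 49.09 CPM in control pair-fed livers) and Clec4g (56.4 to 83.9 CPM, against 103 to 118 CPM) were lower with ethanol without overlap. The 6 markers of monocyte-derived macrophages summed to 129, 51.0 and 59.7 CPM in control ethanol livers, against 32.4, 70.4 and 62.9 CPM in control pair-fed livers, which overlapped, and limma called 0 of the 4 tested. Cd9 gave 102 CPM of the sum in control ethanol library 1, and Spp1 averaged 19.1 ± 5.00 CPM in control ethanol and 26.5 ± 6.03 CPM in control pair-fed livers (SD, n = 3 each). OE pair-fed library 2, the highest of its group in Fabp4, had a macrophage marker sum of 193 CPM, against 35.4 and 50.2 CPM in the other OE pair-fed libraries. Kupffer cell markers summed to 140 to 178 CPM in KO ethanol livers, against 394 to 469 CPM in KO pair-fed livers. By limma 5 of 6 fell in KO mice, where 9.90% of all genes were called in either direction. With the term for Xist above Ddx3y 0 genes of the panel were called in KO mice, so none of these 5 calls held. In control and in OE mice 0 of the 6 were called. No marker was at 0 throughout in these 3 lists, and the part of these cells in the member levels was not tested.

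Cd36, the fatty acid transporter of the plasma membrane, was higher on average in ethanol-fed OE than in ethanol-fed control livers. It stood at 145, 117 and 149 CPM in OE ethanol libraries, against 80.5, 174 and 129 CPM in OE pair-fed libraries. KO mice had 65.9, 61.2 and 77.2 CPM with ethanol, against 64.8, 88.3 and 132 CPM pair-fed, and control mice had 44.2, 93.7 and 102 CPM with ethanol, against 95.2, 66.2 and 80.1 CPM pair-fed. The diets overlapped in all 3 genotypes. Ethanol minus pair-fed log2 differences of Cd36 were -0.42 ± 0.31 in KO, 0.16 ± 0.31 in OE and -0.09 ± 0.31 in control mice (SE).

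Mogat1, an acyltransferase known from fatty mouse liver, was near the detection limit, at 0.178 to 6.61 CPM over all libraries. Its OE pair-fed libraries had 3.03, 6.61 and 1.83 CPM, against 1.93, 1.28 and 0.574 CPM in control pair-fed libraries, which overlapped. The diets overlapped in every genotype. Many of the KO and control values were within a few reads of the limit of 3 reads, and no order among those groups could be read.

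**Figure D1:**
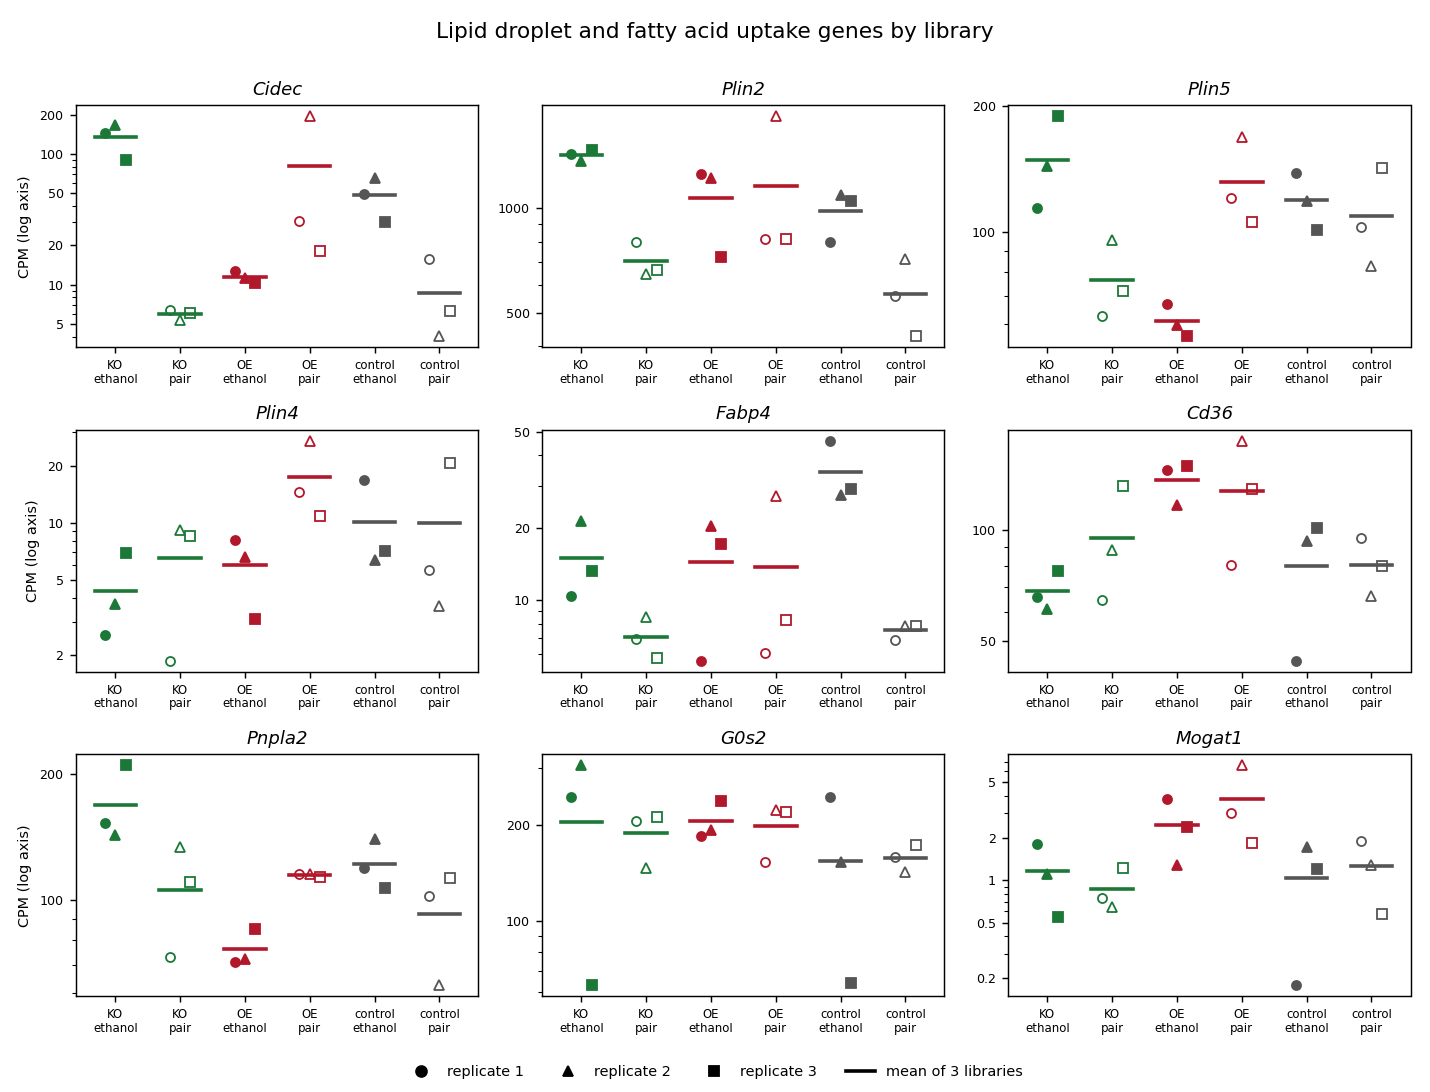
Level of the 9 tested members in each of the 18 libraries, in CPM on a log axis, by genotype and diet (KO, OE, control; ethanol filled, pair-fed open), with symbols for replicate number and a bar at the group mean. The OE ethanol libraries sit lowest in Plin5 and Pnpla2 among the ethanol groups, and OE pair-fed library 2 (open triangle) reaches 194 CPM in Cidec and 1835 CPM in Plin2.

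The ethanol response was fitted over the whole panel within each genotype, by limma on log2(CPM + 1) with Benjamini-Hochberg adjustment over all 11720 genes and a threshold of 0.05. In KO mice 9.90% of all genes were past the threshold, and 3 of the 9 fitted members were among them (Cidec, Plin2 and Plin5, all higher with ethanol). In OE mice it was 1.15% of all genes and 1 member, Plin5, lower with ethanol. In control mice it was 2.70% of all genes and 2 members, Cidec and Fabp4, both higher with ethanol. The members were chosen on these responses, so these counts are no test of them and nothing is read from them. The OE count was 0 without OE pair-fed library 1, 2 or 3 or OE ethanol library 2 or 3, and with edgeR the 1 member was Cidec in place of Plin5. The control count was 0 without control pair-fed library 2 or 3 or control ethanol library 1 or 2, and 1 without control pair-fed library 1. The KO count was 1 without KO pair-fed library 3 or KO ethanol library 3, and 0 with the term for Xist above Ddx3y, with which no gene of the panel passed in KO mice.

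By the lowest and highest library, 5 of 9 members did not overlap between the diets in KO mice and all 5 were higher with ethanol, where 28.5% of all genes did not overlap in either direction. In OE mice 4 of 9 did not overlap and all 4 were lower with ethanol, against 22.4% of all genes in either direction. In control mice 3 of 9 did not overlap and all 3 were higher, against 22.1% of all genes in either direction. The median log2 difference of the 9 members was 0.69 in KO, -0.40 in OE and 0.23 in control mice, beside medians over all tested genes of -0.05 in KO, -0.07 in OE and -0.09 in control mice. Without OE pair-fed library 2 the OE median was -0.015, and without OE ethanol library 2 it was -0.17. With a library left out, the control median ran from -0.03, without pair-fed library 2, to 0.59, without pair-fed library 3, and was 0.12 without pair-fed library 1 and 0.39 without ethanol library 3; the KO median was 0.45 without pair-fed library 1. These counts and medians include Cidec and rest on the contrasts that chose the members.

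**Figure D2:**
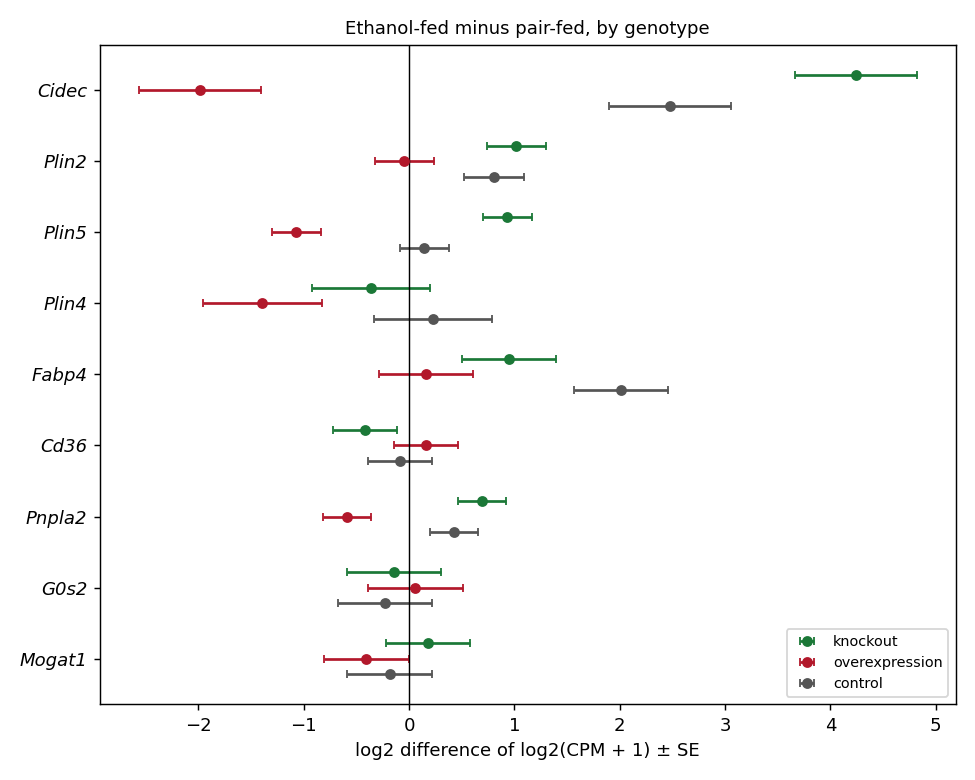
Ethanol minus pair-fed difference in log2(CPM + 1) for each tested member, with the SE of the fit, in KO, OE and control mice (3 libraries a group). Cidec stands at 4.24 in KO, -1.99 in OE and 2.48 in control mice, and the OE points of Plin5, Plin4 and Pnpla2 also lie below 0.

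The ethanol response of OE mice minus that of control mice was -4.46 ± 0.82 for Cidec, -1.85 ± 0.63 for Fabp4, -1.22 ± 0.33 for Plin5 and -1.02 ± 0.32 for Pnpla2 on the log2 scale (SE). Of the 9 members 7 had a negative difference, with a median of -1.02 beside 0.02 over all tested genes. The same difference for KO mice was 1.76 ± 0.82 for Cidec, and the members' median was 0.21 beside 0.04. No member, and 0.00% of all genes, was past the threshold for either difference by limma or by edgeR on the recovered reads. At an unadjusted limma p below 0.05 there were 7.23% of all genes and 4 of the 8 members other than Cidec in the OE difference, and 5.68% of all genes and 1 of 8 in the KO difference, from which nothing is read. Without OE pair-fed library 2, the OE difference of Cidec was -3.47. Both differences share the control libraries, whose pair-fed group was mixed in Xist and Ddx3y, and the choice of the members rested on both differences.

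Genotypes were then compared on each diet for the 8 tested members other than Cidec. In ethanol-fed OE livers Plin5 averaged 61.1 ± 5.61 CPM, against 119 ± 18.5 CPM in ethanol-fed control livers (SD, n = 3 each), a log2 difference of -0.94 ± 0.23 (SE). Its adjusted p by limma was 0.138, so the difference did not pass, although the libraries did not overlap. Cd36 averaged 137 ± 17.3 CPM in ethanol-fed OE livers and 79.8 ± 31.1 CPM in ethanol-fed control livers (SD, n = 3 each), with a log2 difference of 0.85 ± 0.31 and an adjusted p of 0.365 by limma. Pnpla2 differed by -0.67 ± 0.23 (limma adjusted p = 0.329) and Fabp4 by -1.32 ± 0.45 (limma adjusted p = 0.308). These 4 genes did not overlap between the groups, Cd36 higher and the other 3 lower in OE livers.

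No member passed in ethanol-fed OE against control livers, where 0.102% of all genes passed, and 15.0% of all genes did not overlap. At an unadjusted p below 0.05 there were 4 of these 8 members and 8.84% of all genes by limma, and edgeR passed 0 of the 8. The other 4 members, Plin2, Plin4, G0s2 and Mogat1, had limma adjusted p-values of 0.601 to 0.976.

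In ethanol-fed KO against control livers no member passed, where 0.0171% of all genes passed. The Fabp4 difference was -1.16 ± 0.45 (SE; limma adjusted p = 0.526), with every KO library below every control library. Pnpla2 and Plin2 were higher in every KO library, with log2 differences of 0.45 ± 0.23 and 0.55 ± 0.28 and limma adjusted p-values of 0.630 and 0.633. These were 3 of 8 members without overlap, against 13.4% of all genes, and all 6 libraries had Ddx3y above Xist. At an unadjusted p below 0.05 there was 1 of 8 members by limma, where 8.34% of all genes were, and edgeR passed 0 of 8.

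In pair-fed OE against control livers every one of the 9 tested members had a positive difference, with a median of 0.61 beside -0.02 over all tested genes. Pair-fed control libraries 2 and 3 had Xist above Ddx3y, unlike the other libraries of this comparison. Genotype and these sex chromosome genes were thus partly tied in it. With the term for Xist above Ddx3y, 0.00853% of all genes passed, against 0.145% without it. Cidec was at 17.97 CPM or more in each OE pair-fed library and at 15.8 CPM or less in each control pair-fed library. Plin2 differed by 0.95 ± 0.28 (limma adjusted p = 0.265), Mogat1 by 1.02 ± 0.40 (limma adjusted p = 0.473), Plin4 by 0.98 ± 0.56 (limma adjusted p = 0.671) and Cd36 by 0.61 ± 0.31 (limma adjusted p = 0.620). Without OE pair-fed library 2 the Plin2 difference was 0.56, that of Mogat1 0.63, that of Plin4 0.64 and that of Cd36 0.35. Fabp4 then differed by -0.07, so that 8 of the 9 were positive, with a median of 0.35; without OE pair-fed library 1 the median was 0.93. None of the 8 besides Cidec passed, where 0.145% of all genes passed. Of these 8, 2 did not overlap, Plin2 and Pnpla2, against 13.8% of all genes. At an unadjusted p below 0.05 there were 2 of 8 by limma, where 8.46% of all genes were, and edgeR passed 0 of 8.

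In pair-fed KO against control livers no member passed, where 0.00853% of all genes passed, and no member was without overlap, where 7.06% of all genes were. Among those 8 the largest difference in size was that of Plin5, at -0.49 ± 0.23 (SE), and the limma adjusted p was 0.999 for each of the 8 members. At an unadjusted p below 0.05 there was 1 of 8 by limma, where 3.13% of all genes were, and edgeR passed 0 of 8.

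**Figure D3:**
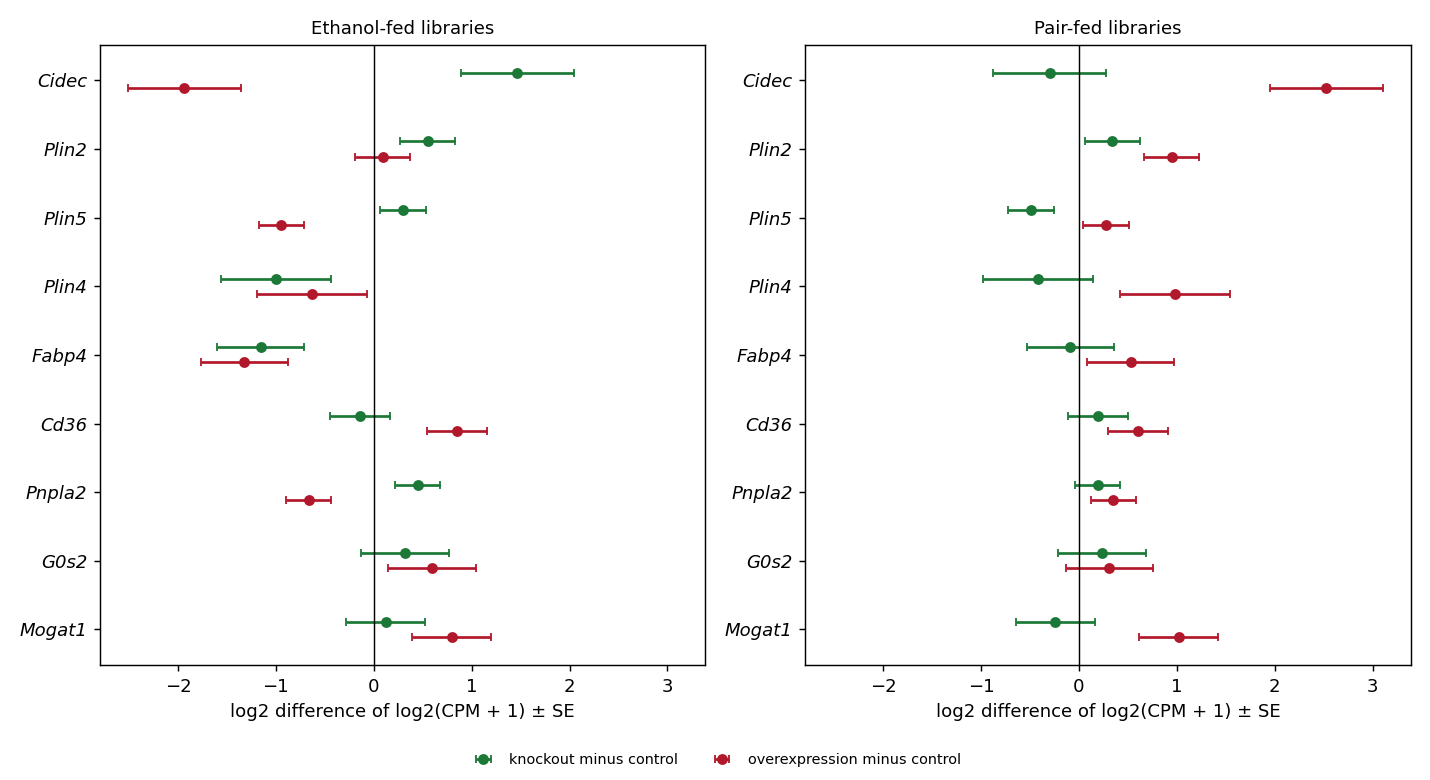
KO minus control and OE minus control differences in log2(CPM + 1) with the SE of the fit, in ethanol-fed (left) and pair-fed (right) livers, 3 libraries a group. In ethanol-fed livers Plin5, Fabp4 and Pnpla2 lie below 0 and Cd36 above 0 in OE mice, and in pair-fed livers all 9 OE points lie above 0.

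The wider machinery of droplet turnover, triglyceride synthesis, fatty acid uptake and its transcriptional control was read from 4 lists of 50 genes, of which 46 were on the panel under the listed symbols and 44 were tested. The lipins Lpin1 and Lpin2, the phosphatidate phosphatases that make diacylglycerol, fell with ethanol in OE mice. They were the 2 of 44 genes that passed there, with 0 that rose, where 1.15% of all genes passed. Lpin1 stood at 222, 151 and 747 CPM in OE ethanol livers, against 1965, 1624 and 1399 CPM in OE pair-fed livers, a log2 difference of -2.49 ± 0.54 (limma adjusted p = 0.0306). Lpin2 stood at 268, 141 and 160 CPM in OE ethanol livers, against 539, 673 and 472 CPM in OE pair-fed livers, a log2 difference of -1.60 ± 0.29 (limma adjusted p = 0.0119). The 2 diets did not overlap for either gene. Lpin1 did not pass with edgeR (adjusted p = 0.0947) or without any 1 library other than OE ethanol library 3, and Lpin2 passed with edgeR (adjusted p = 0.0292) but not without OE ethanol library 2 or 3. Control livers overlapped between the diets for both lipins, and the OE minus control difference in response did not pass for either gene.

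In KO mice 1 of the 44 genes rose with ethanol and 9 fell, and in control mice 0 rose and 1 fell. Of all genes, 9.90% passed in KO and 2.70% in control mice, in either direction. Agpat9, the glycerol-3-phosphate acyltransferase now called Gpat3, rose, at 87.0, 83.9 and 41.7 CPM in KO ethanol livers, against 23.2, 27.1 and 24.6 CPM in KO pair-fed livers (1.40 ± 0.34, limma adjusted p = 0.0140). Srebf1, the SREBP-1 gene of fatty acid synthesis, fell by 2.40 ± 0.37 on the log2 scale in KO mice (limma adjusted p = 0.000685) and by 2.02 ± 0.37 in control mice (limma adjusted p = 0.00782). Srebf1 stood at 72.0, 63.8 and 72.9 CPM in KO ethanol livers, against 644, 337 and 236 CPM in KO pair-fed livers, and the groups did not overlap. In OE mice Srebf1 was also lower with ethanol without overlap. Its log2 difference there was -1.47 ± 0.37 and did not pass (limma adjusted p = 0.0561).

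Among uptake genes, 3 of 13 fell in KO mice: Fabp1, the liver fatty acid binding protein, by 1.16 ± 0.30 (log2; limma adjusted p = 0.0204), Fabp2 by 1.25 ± 0.39 (limma adjusted p = 0.0495) and the lipase Lpl by 1.63 ± 0.51 (limma adjusted p = 0.0487). Among regulators, 3 of 10 fell, namely Srebf1, Ppara by 1.17 ± 0.24 (limma adjusted p = 0.00582) and Cebpa by 0.90 ± 0.26 (limma adjusted p = 0.0327). Lpin2 fell by 1.37 ± 0.29 (limma adjusted p = 0.00606), and of 11 droplet genes the lysosomal lipase Lipa fell by 0.91 ± 0.25 (limma adjusted p = 0.0287) and Hsd17b11 by 0.78 ± 0.22 (limma adjusted p = 0.0274). Each gene that fell in KO mice also had a negative log2 difference in OE and in control mice. Among those that did not pass in OE mice were Ppara, at -0.95 ± 0.24 (limma adjusted p = 0.0574), and Fabp1, at -1.04 ± 0.30 (limma adjusted p = 0.0981), both without overlap. With the term for Xist above Ddx3y, none of these KO calls held, and the control Srebf1 difference was -1.57 with a limma adjusted p of 0.27; without control ethanol library 2 its adjusted p was 0.058. In KO mice the calls of Srebf1, Ppara and Lpin2 held without any 1 KO library. That of Agpat9 was lost without KO ethanol library 1 or 2, and those of Fabp1, Fabp2, Lpl, Lipa, Hsd17b11 and Cebpa were lost without KO pair-fed library 2, without KO pair-fed library 3 and without at least 2 of the other KO libraries, with limma adjusted p-values of 0.052 to 0.188. EdgeR passed 6 of the 44 genes in KO, 1 in OE and 1 in control mice.

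Pparg, which encodes PPAR-gamma and is named here after its values were seen, stood at 8.16 to 18.4 CPM in KO ethanol, 10.2 to 24.3 CPM in OE ethanol and 12.5 to 14.9 CPM in control ethanol livers. Its diets overlapped in all 3 genotypes, with ethanol differences of -0.05 ± 0.40 in KO, 0.03 ± 0.40 in OE and 0.34 ± 0.40 in control mice (SE). No pathway gene passed in any comparison of genotypes or of ethanol responses by limma or by edgeR. At an unadjusted p below 0.05 limma gave 2 to 6 of the 44 genes in those comparisons, where 3.13% to 8.84% of all genes were.

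The genes whose levels followed Cidec most closely over the 18 libraries were ranked by Pearson correlation of log2(CPM + 1) among 8456 genes with a mean of at least 5 CPM, as a description in which the libraries share their groups. The nearest was Cdkn1a, which encodes the cell cycle inhibitor p21, with r = 0.895, and 0.912 over the 16 libraries left without KO ethanol library 2 and OE pair-fed library 2. Pak2 (r = 0.891), Pvr (0.888), Acvr1b (0.883) and Tmem50a (0.875) came next, and over the 16 libraries their r was 0.84 to 0.891. Cdkn1a stood at 341, 375 and 349 CPM in KO ethanol, against 7.47, 13.7 and 5.05 CPM in KO pair-fed livers. It stood at 37.7, 19.0 and 29.5 CPM in OE ethanol, against 26.9, 112 and 20.7 CPM in OE pair-fed livers. Control livers had 187, 277 and 46.2 CPM of Cdkn1a with ethanol, against 27.7, 14.8 and 28.3 CPM pair-fed.

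Among the members, Plin2 was the nearest to Cidec (r = 0.764, and 0.667 over 16 libraries). Plin5 had r = 0.698, Pnpla2 0.661 and Fabp4 0.57, which over the 16 libraries became 0.609 for Plin5, 0.696 for Pnpla2 and 0.471 for Fabp4. Mogat1 (0.26), Plin4 (0.123), G0s2 (0.054) and Cd36 (-0.131) had an r below that of Fabp4.

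**Figure D4:**
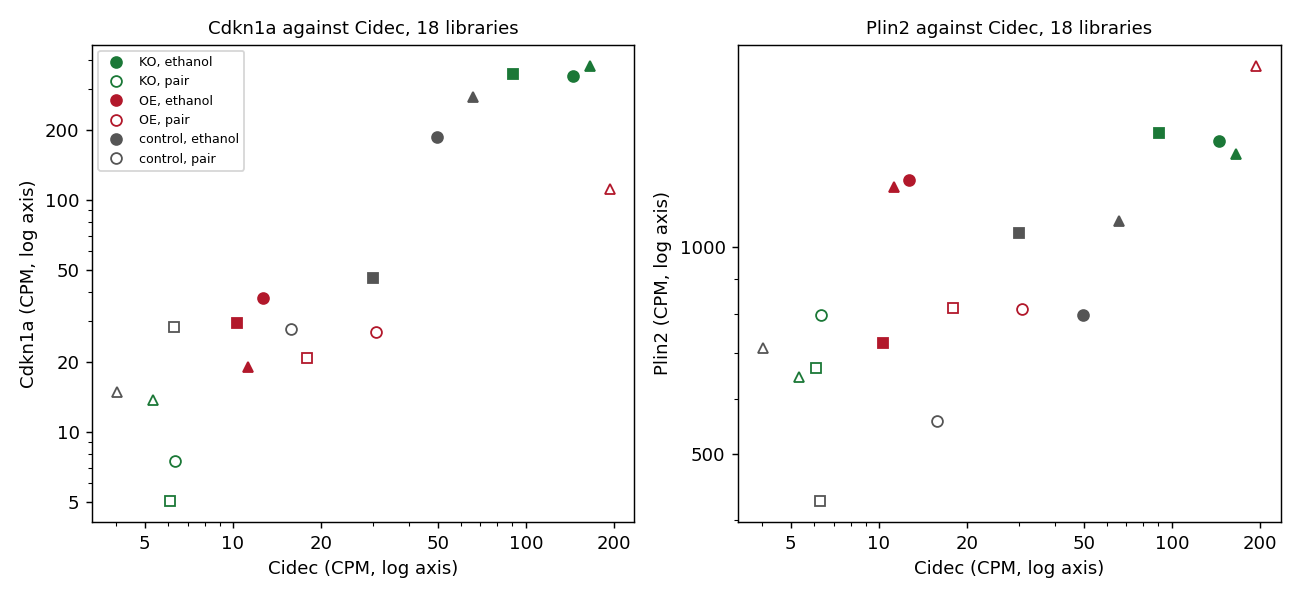
Level of Cdkn1a (left) and Plin2 (right) against Cidec in the 18 libraries, in CPM on log axes, coloured by genotype with ethanol filled and pair-fed open. KO ethanol libraries lie at the upper right, at 341 to 375 CPM of Cdkn1a, and OE pair-fed library 2 has the highest Cidec with 112 CPM of Cdkn1a.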

How the data were processed

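Liver RNA, isolated with RNAzol or TRI Reagent, was read with the Ion AmpliSeq Transcriptome Mouse panel, per the labels' protocols. The authors deposited a table of CPM for 23930 genes in 18 libraries, and the CPM of each library came back to whole reads within 0.02 reads. The per-library files hold log2 values of scaled read counts plus 1, which the authors deposited with the analysis plug-in ampliSeqRNA 5.10.1.2, per the submitters' processing notes. Neither an aligner nor a build is given in the sources used here.

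Every gene reaching 1 CPM in 3 or more libraries entered limma 3.58.1 (R 4.3.3) on log2(CPM + 1), with 6 group means and a moderated test with a mean trend, and Benjamini-Hochberg adjustment within each comparison. Fold changes are on this scale and understate the change of low genes. A replicate number as a block is an alternative. It was tested whether equal numbers deviate together, and r ran from -0.322 to 0.328 over the comparisons. EdgeR 4.0.16 was run on the recovered reads. The fits were also run on simulated reads with the same extra spread between libraries for every gene and no effect of barcode range or sex chromosome genes. Those settings differ from these data, so nothing is read from that run. Other alternatives were the filter, the pseudocount, TMM and quantile scaling, a term for Xist above Ddx3y, the barcode range as a block, and each library left out. All members were named, and each pathway gene past the threshold, up to 4 per list and comparison. The members and lists were chosen with earlier results of these data known.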

Additional observations from a re-analysis of the deposited data

Results flagged for a closer look

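The responses of Cidec, Plin5 and Pnpla2 were marked because every ethanol library lay above all pair-fed libraries in one genotype and below all of them in the other. For Cidec the ethanol response in OE mice minus that in control mice was -4.46 on the log2 scale, and minus that in KO mice it was -6.23. Cidec was chosen on these values, so they are given with no test. For Plin5 the response in OE mice minus that in KO mice was -2.0, and for Pnpla2 it was -1.28. The differences between OE and KO mice were not tested, and in KO mice diet cannot be told apart from Xist and Ddx3y. The pair-fed control group was mixed in these genes.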

How the results depend on the processing

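Of 432 alternative values for the 22 member differences that passed or reached 1 in size on the log2 scale, 388 kept the side of the threshold, 36 no longer passed, 8 newly passed and 0 reversed. The alternatives for pathway genes were added after seeing the data, and 154 of 224 values for 13 results kept their call, 70 no longer passed and 0 reversed. The count of members passing in control mice, 2 in the fit of the report, was 1 (Fabp4) with a pseudocount of 10 CPM, 0 with the term for Xist above Ddx3y, 0 over libraries with Ddx3y above Xist alone, where pair-fed library 1 was the 1 control pair-fed library left, and 0 to 2 with each library left out. With no filter on low values it stayed at 2, but these were Cidea and Fabp4. It was 1 without control pair-fed library 1, and 0 without control pair-fed library 2 or 3 or without control ethanol library 1 or 2. In KO mice the count of 3 became 0 with that term and ran from 1 to 3 with each library left out, the 1 (Cidec) without KO pair-fed library 3 or KO ethanol library 3. It was 2 with no filter, without Plin2; 2 without KO pair-fed library 1, without Plin5; 2 without KO ethanol library 1 or 2, without Plin2; and 3 without KO pair-fed library 2, with Pnpla2 in place of Plin2. In OE mice the count of 1, Plin5, stayed at 1 with edgeR but was Cidec, and became 0 with no filter on low values, 0 with TMM and 0 with quantile scaling, and ran from 0 to 1 with each library left out; it was 0 without OE pair-fed library 1, 2 or 3 or OE ethanol library 2 or 3. For OE against control livers the count of 0 became 1 with edgeR in pair-fed livers. In ethanol-fed livers it became 1 when only the compared libraries entered the fit. The gene was Cidec in both, around which the members were chosen, so nothing is read from these counts. In pair-fed livers the count ran from 0 to 1 with each library left out, the 1 without control pair-fed library 1 or OE pair-fed library 3. For the OE minus control difference in response it ran from 0 to 1, the 1 without control pair-fed library 1 or OE pair-fed library 2 or 3. The counts for KO against control livers and for the KO difference in response were 0 throughout. The cause of these moves was not tested.

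The count of all genes passing, 1160 in KO mice, was 0 to 1314 over the alternatives and 621 to 1209 with a library left out; in OE mice 135 became 57 to 267 and 17 to 149; in control mice 316 became 21 to 336 and 49 to 281. For OE against control livers 17 pair-fed became 1 to 29 and 5 to 86, and 12 ethanol-fed became 1 to 22 and 0 to 10. For KO against control livers 1 pair-fed became 0 to 2 in both, and 2 ethanol-fed became 1 to 5 and 1 to 36. For differences in response, 0 in KO became 0 to 3 and 0 in OE became 0 to 27 with a library left out, and 0 in OE became 0 to 3 over the alternatives.

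With the replicate number as a block the member counts were 3 in KO, 1 in OE and 2 in control mice, and 0 in all other comparisons. In no comparison did all same-numbered pairs correlate above 0.1, so the numbers were not taken as pairs, although the barcode ranges of the labels nearly follow them. With the barcode range as a block the member counts were also 3, 1, 2 and otherwise 0, while the count of all genes passing in OE against control livers was 2 with ethanol and 13 pair-fed. Mogat1, Cidea and Plin4 are limited by depth.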

Other observations

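OE pair-fed library 2 had the highest Cidec, Plin2, Plin4, Cd36 and Mogat1 of the 18 libraries, at 194 CPM of Cidec, 1835 CPM of Plin2, 27.0 CPM of Plin4, 174 CPM of Cd36 and 6.61 CPM of Mogat1. Its Yap1 was 155 CPM, between 57.6 and 214 CPM in the other OE pair-fed libraries. Its Lpl, the lipase that frees fatty acids from circulating triglyceride, was 29.0 CPM, against 5.30 and 3.85 CPM in the other OE pair-fed libraries, and its Cdkn1a was 112 CPM, against 26.9 and 20.7 CPM. Its Lpin1, at 1624 CPM, and its Pnpla2, at 116 CPM, lay between or beside those of the other OE pair-fed libraries.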
